A study of Mus musculus with 23 samples.

Results

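Transcription factor genes whose products mark or build nuclei of the hypothalamus, 10 in all, were followed over all arrays, as a measure of which nuclei each dissected sample held: Sim1, Otp, Nr5a1, Fezf1, Isl1, Lhx1, Lhx9, Six6, Dlx1 and Nkx2-1. They were listed by name for the nuclei they are known from, with earlier results of these data known, and each was read from the probe set that names that gene alone. All 10 were measured, each by 1 such probe set, among 18704 genes.

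The animals of every group were male db/db mice, which lack a working long leptin receptor and become obese and diabetic, so no group here had intact leptin signalling and no lean mice were among these samples. They were 8 weeks old, had eaten chow for 2 weeks, and received intraperitoneal celastrol, a triterpenoid from thunder god vine, or vehicle. The labels give the solvent DMSO at 25 µl per day for every group, celastrol and vehicle alike. Eating and weight of these mice were not among the values used. Hypothalamic RNA was taken after 6 h, 1 day or 4 days and hybridised to 23 whole-transcript arrays, with 4 arrays in every group except 3 for celastrol at 6 h. The labels give a celastrol dose of 250 µg/kg at 6 h and none for 1 day or 4 days.

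The hypothalamus is built from nuclei that arise under the control of different transcription factors, several of which stay on in adult neurons. Sim1 and Otp belong to the paraventricular and supraoptic nuclei, Nr5a1 and Fezf1 to the ventromedial nucleus, and Isl1 to the arcuate nucleus, where appetite neurons that sense leptin lie. Lhx1 and Six6 are known from the suprachiasmatic nucleus, Lhx9 from the lateral hypothalamus, Dlx1 from inhibitory neurons in many regions, and Nkx2-1 from the ventral hypothalamus as a whole. In RNA from a whole dissected block, a lower value means fewer cells of a type or less RNA per cell, and these cannot be told apart.

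The tissue label was checked first on peptide genes of hypothalamic neurons. On all 23 arrays, log2 expression was 12.02 to 12.71 for Oxt (oxytocin), 11.82 to 12.64 for Avp (vasopressin) and 12.58 to 13.10 for Hcrt (orexin). The array medians over all probe sets were 8.57 to 8.64. Some arrays also carried pituitary signal: Prl, the prolactin gene, ranged from 5.88 to 11.3, and the mean of 11 pituitary markers was 8.72 or more on 3 vehicle arrays and 8.26 or less on the other 20. Pituitary signal was not confined to those 3. Gh, the growth hormone gene, was 11.61 on array 3 of celastrol at 6 h and 11.56 on array 1 of vehicle at 1 day, against 7.39 on array 1 of vehicle at 6 h. Array 3 of vehicle at 6 h also stood apart in both directions, holding the lowest value of 18.6% of all genes and the highest value of 14.5%. Samples of a group are biological replicates per their titles, p-values measure the spread between them, and precision is limited by how many arrays there are.

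Promoter windows are shown for 4 of the factors: Sim1 and Lhx1, which had the highest F between times in vehicle alone and averaged over both treatments, and Isl1 and Fezf1, which had the highest F between times in celastrol alone. Each window is the 250 bases before the annotated start in RefSeq's table for build GRCm38.p6, on the gene's own strand: Sim1 at chr10:50895401-50895650 (plus), Lhx1 at chr11:84525535-84525784 (minus), Isl1 at chr13:116309689-116309938 (minus) and Fezf1 at chr6:23248265-23248514 (minus). Capitals mark CCAAT or its reverse complement ATTGG, and TATAAA or its reverse complement TTTATA.
Sim1: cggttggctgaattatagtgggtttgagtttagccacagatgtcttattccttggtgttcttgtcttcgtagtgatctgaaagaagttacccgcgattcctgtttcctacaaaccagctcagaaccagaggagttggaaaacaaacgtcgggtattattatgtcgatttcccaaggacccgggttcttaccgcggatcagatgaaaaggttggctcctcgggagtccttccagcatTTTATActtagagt
Lhx1: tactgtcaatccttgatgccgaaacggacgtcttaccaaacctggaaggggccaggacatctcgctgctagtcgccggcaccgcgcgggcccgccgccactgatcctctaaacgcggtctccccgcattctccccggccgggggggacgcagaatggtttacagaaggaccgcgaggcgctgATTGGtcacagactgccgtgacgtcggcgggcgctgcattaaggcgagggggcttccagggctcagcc
Isl1: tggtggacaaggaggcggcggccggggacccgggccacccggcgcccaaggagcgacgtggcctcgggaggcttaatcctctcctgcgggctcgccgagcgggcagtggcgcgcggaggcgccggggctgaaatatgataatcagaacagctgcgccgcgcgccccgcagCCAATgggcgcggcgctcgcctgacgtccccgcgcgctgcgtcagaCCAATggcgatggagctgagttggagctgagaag
Fezf1: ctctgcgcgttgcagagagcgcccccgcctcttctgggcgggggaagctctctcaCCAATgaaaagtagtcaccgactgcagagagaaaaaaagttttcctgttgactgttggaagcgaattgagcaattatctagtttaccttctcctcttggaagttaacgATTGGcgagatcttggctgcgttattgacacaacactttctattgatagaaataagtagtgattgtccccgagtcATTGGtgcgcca

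The window of Sim1 held TTTATA and no CCAAT, that of Lhx1 held 1 CCAAT on either strand, that of Isl1 held 2 and that of Fezf1 held 3. A window was found for 9 of the 10 factors, Nr5a1 being the other. CCAAT on either strand was in 6 of these 9 windows (Fezf1, Isl1, Lhx1, Lhx9, Otp and Six6) and in 33.8% of the 32851 windows of all genes. TATAAA was in 1 of the 9, against 12.4% of all windows, and TAATTA, searched as a core letter sequence of homeodomain sites, was in 0 of the 9, against 4.84%. The GC content was 45.6% for Sim1 and 47.6% for Fezf1, but 64.8% for Lhx1 and 71.2% for Isl1, where the quartiles over all windows were 45.2% and 61.2%. These matches describe letters in a window and say nothing about which factors bind there.

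Celastrol was set against vehicle of the same time for each factor, to see whether markers of any nucleus differed in the treated samples. None of the 10 factors passed at 6 h, at 1 day or at 4 days (limma, adjusted over all 18704 genes at 0.05), nor for the mean of these differences. Over all genes, the share that passed was 0% at 6 h, 0.0160% at 1 day, 0% at 4 days and 0% for the mean. At an unadjusted p below 0.05, 0 of the 10 passed at 6 h (14.8% of all genes), 0 at 1 day (12.5%), 3 at 4 days (7.29%) and 1 for the mean (13.5%). All 4 of these calls were higher with celastrol. They are not 4 separate factors, because Nkx2-1 was called both at 4 days and for the mean, which includes the 4 day difference. The share of all genes called higher was 8.56% at 6 h, 8.31% at 1 day, 2.73% at 4 days and 8.28% for the mean. The median absolute log2 difference of the 10 was 0.0293 at 6 h, 0.0463 at 1 day and 0.082 at 4 days, beside 0.0717, 0.0583 and 0.0484 over all genes. Their median was thus below that of all genes at 6 h and 1 day and above it at 4 days. By direction, 9871 of all 18704 genes were higher with celastrol at 6 h, 10120 at 1 day and 9289 at 4 days. The 95% confidence interval of a difference reached 0.115 to 0.27 to either side at 6 h and 0.106 to 0.25 at the later times. A difference smaller than its own gene's reach could not be told from 0 even before adjustment. Passing after adjustment took more than that. Isl1 differed by 0.15 at 4 days, with an interval of 0.03 to 0.27, and did not pass (limma, adjusted p = 0.504).

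**Figure D1:**
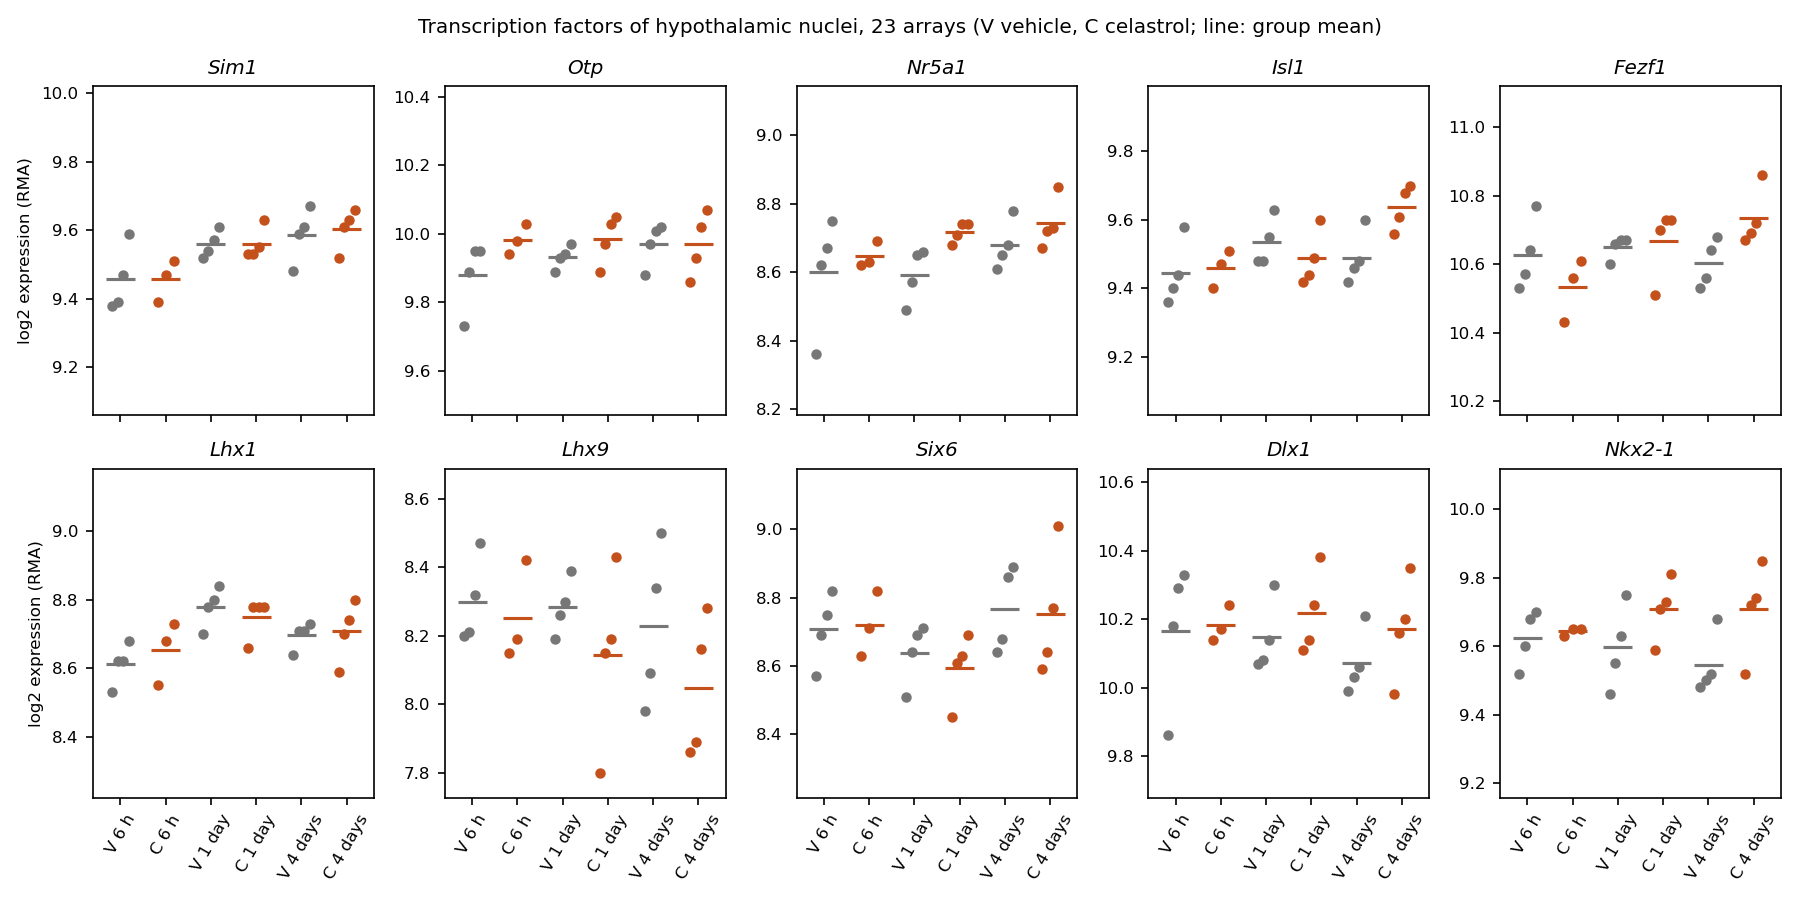
Log2 expression (RMA, y axis) of each factor on all 23 arrays by treatment and time (x axis; grey, vehicle; orange, celastrol); points are arrays and lines are group means, and every panel spans the same log2 range. Lhx9 spreads widest, from 7.80 to 8.50, while Sim1 stays between 9.38 and 9.67 and has lower group means at 6 h than at 4 days in both treatments.

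Of the paraventricular factors, Sim1 differed by -0.0041 to 0.01 between treatments over the 3 times and Otp by -0.0015 to 0.10, and neither passed. Sim1 encodes a bHLH-PAS factor without which paraventricular and supraoptic neurons do not form, and loss of a single copy causes obesity in mice. Its log2 expression on the vehicle arrays was 9.47, 9.39, 9.38 and 9.59 at 6 h, 9.52, 9.61, 9.57 and 9.54 at 1 day, and 9.67, 9.48, 9.59 and 9.61 at 4 days. On the celastrol arrays it was 9.39, 9.51 and 9.47 at 6 h, 9.55, 9.53, 9.53 and 9.63 at 1 day, and 9.61, 9.63, 9.52 and 9.66 at 4 days. The treatments overlapped at every time, and 6 of the 7 arrays at 6 h, all but array 4 of vehicle, were at 9.51 or below, as was 1 later array, array 2 of vehicle at 4 days. The difference between celastrol and vehicle was -0.0041 ± 0.0554 (SE) at 6 h, 0.0005 ± 0.0513 at 1 day and 0.01 ± 0.0513 at 4 days, with adjusted p of 0.979, 0.999 and 0.981.

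Differences between times in Sim1 were as large with vehicle as with celastrol. The rise from 6 h to 4 days was 0.13 in vehicle and 0.15 in celastrol mice, and from 6 h to 1 day 0.10 and 0.11. Neither treatment passed alone (F test over the 3 times in limma, adjusted p = 0.17 in vehicle, where 8.83% of all genes passed, and 0.285 in celastrol, where 0.246% passed). In a comparison added after the values were seen, which averaged the times over both treatments, Sim1 rose by 0.10 ± 0.0377 (SE) to 1 day (95% interval 0.03 to 0.18) and by 0.14 ± 0.0377 to 4 days (0.06 to 0.22; F = 7.16, adjusted p = 0.0398), a change of 1.10-fold at 4 days. Sim1 was the only one of the 10 to pass there, where 12.4% of all genes passed, so 1 of 10 is near the background. At an unadjusted p below 0.05, 3 of the 10 passed that test, against 31.4% of all genes, beside 2 of the 10 in vehicle alone (28.5%) and 3 in celastrol alone (16.4%). The call did not hold for most single arrays left out: without any one of 15 of the 23 arrays the adjusted p was 0.052 to 0.106, highest without array 1 of celastrol at 6 h. It held, at 0.0164 to 0.0498, without arrays 1 or 4 of vehicle at 6 h, array 1 of vehicle at 1 day, array 2 of vehicle at 4 days, array 2 of celastrol at 6 h, arrays 2 or 4 of celastrol at 1 day, or array 3 of celastrol at 4 days. It was also lost after a further quantile normalisation (adjusted p = 0.0789) and with arrays centred on their medians (0.0503).

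Otp encodes a homeodomain factor needed for the peptide neurons of the same nucleus. On the vehicle arrays its log2 expression was 9.95, 9.89, 9.73 and 9.95 at 6 h, 9.94, 9.89, 9.97 and 9.93 at 1 day, and 10.02, 10.01, 9.97 and 9.88 at 4 days. With celastrol it was 10.03, 9.98 and 9.94 at 6 h, 10.03, 9.89, 10.05 and 9.97 at 1 day, and 9.86, 10.02, 10.07 and 9.93 at 4 days. The groups overlapped at every time; the low value of 9.73 was that of array 3 of vehicle at 6 h, which also held the lowest Sim1, Nr5a1, Lhx1 and Dlx1 of all 23 arrays. The difference at 6 h was 0.10 ± 0.0597 (SE, adjusted p = 0.414), and those at 1 day and 4 days were 0.05 ± 0.0553 and -0.0015 ± 0.0553. Averaged over both treatments, the difference of 4 days over 6 h was 0.04 ± 0.0407 (95% interval -0.04 to 0.13). Among the 5 peptide genes of these nuclei (Avp, Oxt, Crh, Trh and Sst), 0 passed with celastrol at any time. Between times averaged over both treatments, where 12.4% of all genes passed, 1 of the 5 did. This was Oxt, whose group means were 12.20 ± 0.156 and 12.31 ± 0.0788 at 6 h against 12.47 ± 0.0484 and 12.59 ± 0.0869 at 4 days (SD; n = 4, 3, 4 and 4; adjusted p = 0.00461).

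Of the ventromedial factors, Nr5a1 differed most at 1 day and Fezf1 at 4 days, and neither passed at any time. Nr5a1 encodes steroidogenic factor 1, a nuclear receptor that in the brain is largely confined to this nucleus and is also made by gonadotropes of the pituitary. At 1 day its log2 expression was 8.65, 8.49, 8.66 and 8.57 with vehicle and 8.74, 8.68, 8.71 and 8.74 with celastrol. Every celastrol array lay above every vehicle array, which held for 1 of the 10 factors at 1 day and, in either direction, for 11.0% of all genes; for 6 h and 4 days these were 0 of the 10, against 10.3% and 3.50%. The difference at 1 day was 0.12 ± 0.0644 (SE, 95% interval -0.01 to 0.26, adjusted p = 0.448), and over the alternatives tried its adjusted p ranged from 0.13 to 0.702. At 6 h the values were 8.67, 8.75, 8.36 and 8.62 with vehicle and 8.63, 8.69 and 8.62 with celastrol, and at 4 days 8.65, 8.78, 8.68 and 8.61 against 8.72, 8.67, 8.85 and 8.73. The groups overlapped at both times, and the differences were 0.05 ± 0.0696 and 0.06 ± 0.0644.

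Fezf1 encodes a zinc finger repressor which, in the adult hypothalamus, marks the same nucleus. At 4 days its log2 expression was 10.64, 10.68, 10.53 and 10.56 with vehicle and 10.67, 10.69, 10.86 and 10.72 with celastrol. The groups overlapped, with 3 of 4 celastrol arrays above every vehicle array. The difference was 0.13 ± 0.0605 (SE, 95% interval 0.01 to 0.26, adjusted p = 0.646). At 6 h the direction was the other way, with 10.77, 10.53, 10.64 and 10.57 for vehicle and 10.43, 10.56 and 10.61 for celastrol (difference -0.09 ± 0.0653, adjusted p = 0.498), and at 1 day the values were 10.67, 10.60, 10.67 and 10.66 against 10.73, 10.70, 10.51 and 10.73 (0.02 ± 0.0605). A test of whether the celastrol difference depends on time did not pass for Fezf1 (F = 3.24, adjusted p = 0.404) or for any of the 10 factors; 0.0588% of all genes passed it, and 0 of the 10 had an unadjusted p below 0.05, against 13.0% of all genes. Of 8 other genes of the ventromedial nucleus, 3 were higher with celastrol at 6 h, 5 at 1 day and 7 at 4 days, with 0 past the threshold and medians of -0.0578, 0.0244 and 0.048.

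Isl1, a LIM-homeodomain factor of arcuate neurons that turns on Pomc during development, was read as the marker of the arcuate nucleus, and pituitary cells make it too. At 4 days its log2 expression was 9.48, 9.60, 9.46 and 9.42 with vehicle and 9.56, 9.68, 9.61 and 9.70 with celastrol. The groups overlapped by 1 array, array 2 of vehicle, and 3 of 4 celastrol arrays lay above every vehicle array. The difference was 0.15 ± 0.0558 (SE, 95% interval 0.03 to 0.27), with the smallest p of the 10 factors at that time (adjusted p = 0.504), and over the alternatives it kept its sign with adjusted p between 0.411 and 0.781. At 6 h the arrays read 9.58, 9.36, 9.40 and 9.44 with vehicle and 9.40, 9.47 and 9.51 with celastrol, and at 1 day 9.48, 9.55, 9.48 and 9.63 against 9.49, 9.44, 9.42 and 9.60. These groups overlapped, and the differences were 0.01 ± 0.0603 and -0.04 ± 0.0558. Of 9 other arcuate genes, among them Pomc, Npy and Ghrh, 6 were higher at 6 h, 7 at 1 day and 5 at 4 days, with 0 past the threshold and medians of 0.0419, 0.107 and 0.00795.

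Nkx2-1, the homeodomain factor that specifies the ventral hypothalamus in the embryo and persists in its neurons and tanycytes, was the third factor with an unadjusted p below 0.05 at 4 days. Its log2 expression there was 9.68, 9.52, 9.50 and 9.48 with vehicle and 9.52, 9.74, 9.85 and 9.72 with celastrol, a difference of 0.16 ± 0.0685 (SE, 95% interval 0.02 to 0.30, adjusted p = 0.617). The first array of each group ran against the others, so the groups overlapped, with 3 of 4 celastrol arrays above every vehicle array. At 1 day the values were 9.75, 9.55, 9.63 and 9.46 against 9.81, 9.73, 9.59 and 9.71 (0.11 ± 0.0685, adjusted p = 0.524), and at 6 h 9.68, 9.60, 9.52 and 9.70 against 9.63, 9.65 and 9.65 (0.02 ± 0.074). The mean over times was 0.10 ± 0.0407 (adjusted p = 0.312), the only one of the 10 with an unadjusted p below 0.05 in that comparison.

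Isl1, Fezf1 and Nkx2-1 were thus the 3 factors higher at 4 days at an unadjusted p below 0.05, in a comparison where 2.73% of all genes were higher by that rule, and none of them passed after adjustment. Nr5a1, of the same nucleus as Fezf1, was not among them. Without array 3 or 4 of vehicle at 4 days, or array 3 of celastrol at 4 days, or with a further quantile normalisation, that count was 1, and with every array omitted in turn it was 1 to 4. Array 3 of celastrol at 4 days held the highest Otp, Nr5a1, Fezf1, Six6 and Nkx2-1 of all 23 arrays, 5 of the 10 factors, while it held the highest value of 4.26% of all genes. Pituitary markers moved in the other direction: 10 of 11 measured were lower with celastrol at 4 days, as were 9415 of all 18704 genes. The mean of these markers ranged from 7.57 to 8.72 with vehicle and from 7.48 to 7.75 with celastrol, and none passed. Without the 4 vehicle arrays with Prl above 9, a choice made after seeing the data, the differences at 4 days were 0.186 for Isl1, 0.158 for Fezf1 and 0.152 for Nkx2-1, against 0.15, 0.13 and 0.16 with them. Those arrays were 2 and 4 of vehicle at 6 h, 1 of vehicle at 1 day and 2 of vehicle at 4 days. Only the last enters the differences at 4 days, so these values differ through that array alone.

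**Figure D2:**
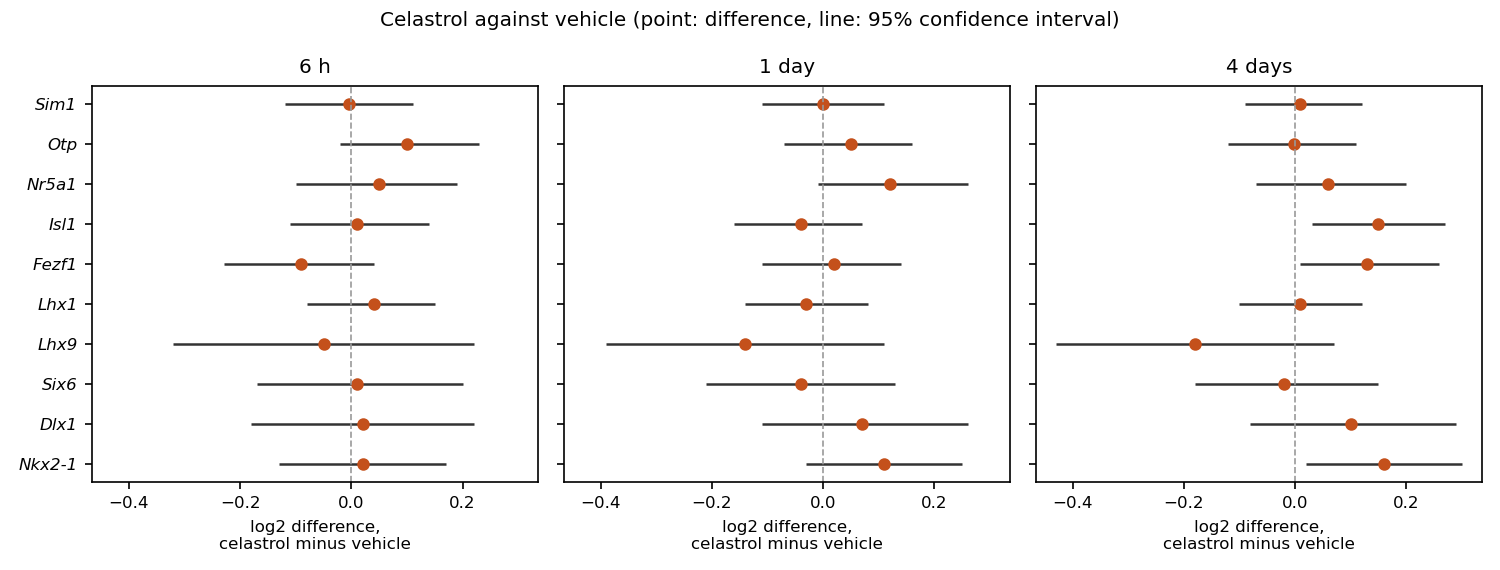
Log2 difference of celastrol minus vehicle (x axis) for each factor (y axis) at 6 h, 1 day and 4 days; points are limma estimates and lines are 95% confidence intervals. All intervals contain 0 at 6 h and 1 day; at 4 days those of Isl1 (0.03 to 0.27), Fezf1 (0.01 to 0.26) and Nkx2-1 (0.02 to 0.30) do not, although none passed after adjustment.

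Lhx1 is a LIM-homeodomain factor that keeps neurons of the suprachiasmatic clock in step with one another. Its log2 expression on the vehicle arrays was 8.62, 8.62, 8.53 and 8.68 at 6 h, 8.70, 8.78, 8.84 and 8.80 at 1 day, and 8.71, 8.71, 8.73 and 8.64 at 4 days. With celastrol it was 8.55, 8.73 and 8.68 at 6 h, 8.78, 8.78, 8.66 and 8.78 at 1 day, and 8.59, 8.80, 8.70 and 8.74 at 4 days. All 4 vehicle arrays at 1 day were above all 4 at 6 h, and the treatments overlapped at every time. How many of all genes were so separated between these vehicle groups was not counted. In the F test over times in vehicle, 28.5% of all genes had an unadjusted p below 0.05. The differences between treatments were 0.04 ± 0.0559 (SE), -0.03 ± 0.0518 and 0.01 ± 0.0518. Between times, vehicle alone gave an adjusted p of 0.0911 (F = 5.17) and the average of both treatments one of 0.0564 (F = 6.06), with 0.13 ± 0.0381 at 1 day over 6 h and 0.07 ± 0.0381 at 4 days over 6 h. The latter test did not pass without any one of 17 of the 23 arrays (adjusted p = 0.0637 to 0.141), with a variance trend (0.0668) or with quantile normalisation (0.055). It passed when genes of the lowest tercile by level were left out (adjusted p = 0.0435), with arrays centred on their medians (0.0398) and with array weights (0.0319), and without any one of 6 arrays (0.0461 to 0.0488).

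Six6, a homeobox gene that the suprachiasmatic nucleus needs to form and that the pituitary and retina also use, had the third widest spread between arrays of a group. Its log2 expression ranged from 8.45, on array 4 of celastrol at 1 day, to 9.01, on array 3 of celastrol at 4 days. The group means were 8.71 ± 0.106 with vehicle and 8.72 ± 0.0934 with celastrol at 6 h, 8.64 ± 0.0898 and 8.59 ± 0.0992 at 1 day, and 8.77 ± 0.125 and 8.75 ± 0.187 at 4 days (SD, n = 4 except 3 for celastrol at 6 h). The groups overlapped at every time, and no difference between treatments exceeded -0.04 ± 0.0815 (SE, at 1 day) in size. Of 7 other genes of the suprachiasmatic nucleus, among them Vip, Avp and Prok2, 1 was lower with celastrol at 6 h, 5 at 1 day and 5 at 4 days, with 0 past the threshold and medians of 0.0481, -0.0518 and -0.106.

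Dlx1, a homeobox gene of inhibitory interneurons in the forebrain and of inhibitory neurons in several hypothalamic areas, had the second widest spread. It ranged from 9.86, on array 3 of vehicle at 6 h, to 10.38, on array 3 of celastrol at 1 day. The group means were 10.16 ± 0.211 and 10.18 ± 0.051 at 6 h, 10.15 ± 0.106 and 10.22 ± 0.12 at 1 day, and 10.07 ± 0.0975 and 10.17 ± 0.152 at 4 days (vehicle, then celastrol; SD, n = 4 except 3 for celastrol at 6 h). The groups overlapped at every time, with differences of 0.02 ± 0.0962 (SE), 0.07 ± 0.0891 and 0.10 ± 0.0891, none of which passed. The difference at 6 h was -0.0808 without array 3 of vehicle, -0.0587 with array weights and -0.00845 without array 3 of celastrol.

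Lhx9, a LIM-homeodomain gene of orexin neurons in the lateral hypothalamus and of neurons in the thalamus, was the most variable of the factors. Its log2 expression was 8.47, 8.21, 8.32 and 8.20 with vehicle and 8.19, 8.42 and 8.15 with celastrol at 6 h. At 1 day it was 8.19, 8.26, 8.39 and 8.30 against 7.80, 8.43, 8.15 and 8.19, and at 4 days 7.98, 8.09, 8.34 and 8.50 against 8.16, 7.86, 7.89 and 8.28. The groups overlapped at every time, with low arrays (7.80 to 7.98) in celastrol at 1 day and in both groups at 4 days. The differences were -0.05 ± 0.13 (SE) at 6 h, -0.14 ± 0.121 at 1 day and -0.18 ± 0.121 at 4 days, with adjusted p of 0.88, 0.67 and 0.821, and the mean over times was -0.12 ± 0.0716 (adjusted p = 0.465). Lhx9 and Six6 were the 2 factors whose mean difference over times was below 0 (-0.12 and -0.02). Of 12 thalamus markers, 8, 10 and 9 were also lower with celastrol at 6 h, 1 day and 4 days, and none of them passed. Their medians were -0.0306, -0.178 and -0.172. Over all 18704 genes, 8833, 8584 and 9415 were lower at these times. The mean of the 12 ranged from 9.25 to 9.61 with vehicle and 9.19 to 9.36 with celastrol at 6 h, from 9.19 to 9.55 and 9.05 to 9.24 at 1 day, and from 9.03 to 9.62 and 9.05 to 9.26 at 4 days. Their part in the Lhx9 difference was not tested. Of 7 other lateral hypothalamic genes, among them Hcrt and Pmch, 4 were higher at 6 h, 7 at 1 day and 7 at 4 days, with medians of 0.0162, 0.0942 and 0.139 and 0 past the threshold.

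The spread between arrays of a group differed among the factors. The within-group SD was 0.19 for Lhx9, larger than that of 97.6% of all genes, 0.136 for Dlx1 (84.8%) and 0.123 for Six6 (76.2%). At the other end stood Sim1 with 0.0671 (19.4%), Lhx1 with 0.0681 (20.3%), Otp with 0.0751 (28.5%) and Isl1 with 0.076 (29.6%). Fezf1 (0.085), Nr5a1 (0.0923) and Nkx2-1 (0.0998) lay near the median gene, whose SD was 0.0942. Differences in the makeup of the samples and error of measurement both enter this SD and cannot be told apart here.

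Ordered by level, neighbouring groups overlapped for every factor, and the highest and lowest group means were 1.08-fold (Otp) to 1.19-fold (Lhx9) apart. Celastrol at 4 days was the highest group for Sim1, Nr5a1, Isl1 and Fezf1, with means of 9.60 ± 0.0618, 8.74 ± 0.0742, 9.64 ± 0.0624 and 10.73 ± 0.0865 (SD, n = 4), and the lowest for Lhx9, with 8.05 ± 0.205. The lowest groups of the former were celastrol at 6 h for Sim1 and Fezf1, vehicle at 1 day for Nr5a1 and vehicle at 6 h for Isl1. Lhx1 was highest in vehicle at 1 day (8.78 ± 0.0591), Six6 in vehicle at 4 days, and Otp, Dlx1 and Nkx2-1 in celastrol at 1 day. The arrays of the highest and the lowest group did not overlap for Sim1, Nr5a1, Fezf1 and Lhx1. How many of all genes do the same was not counted, so this is not read as a result about the factors. The highest and lowest groups are extremes picked from 6 groups and were given no test.

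Whether the factors varied together between arrays of the same group was asked next. Group means were subtracted, and correlations were tested by permuting arrays within groups (100000 permutations, 2-sided). Of 45 pairs, 32 were positive and 13 negative, with r from -0.52 to 0.64 and a median of 0.14. None passed after adjustment over the 45 pairs, for r or for rho, and 7 had an unadjusted p below 0.05. The same counts over pairs of all genes were not made, so these are not read as a result about the factors.

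For pairs of one nucleus, r was 0.02 for the paraventricular factors Sim1 and Otp, 0.23 for the ventromedial factors Nr5a1 and Fezf1, and 0.18 for the suprachiasmatic factors Lhx1 and Six6. Without the 2 arrays farthest from the median of the first gene named, these were -0.05, 0.59 and -0.05. By that measure 0.59 was the highest of the 45 pairs, but which arrays are left out depends on which gene of a pair comes first. Over all 23 arrays the highest were Otp with Nr5a1 (r = 0.64, permutation p = 0.0128, adjusted p = 0.201; rho = 0.55, permutation p = 0.0175), Isl1 with Fezf1 (r = 0.59, permutation p = 0.0143, adjusted p = 0.201; rho = 0.61, permutation p = 0.00995) and Otp with Nkx2-1 (r = 0.56, permutation p = 0.016, adjusted p = 0.201; rho = 0.56, permutation p = 0.0125). Without the 2 farthest arrays, these r were 0.47, 0.45 and 0.37. The lowest was Otp with Lhx9 (r = -0.52, permutation p = 0.0302, adjusted p = 0.227; rho = -0.53, permutation p = 0.0306), at -0.59 without the 2 farthest arrays. With group means left in, Otp with Nr5a1 (r = 0.67) and Isl1 with Fezf1 (r = 0.68) passed, at adjusted permutation p of 0.031 and 0.0126. Without array 3 of celastrol at 1 day, Otp with Nkx2-1 passed (r = 0.70, adjusted permutation p = 0.0423).

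**Figure D3:**
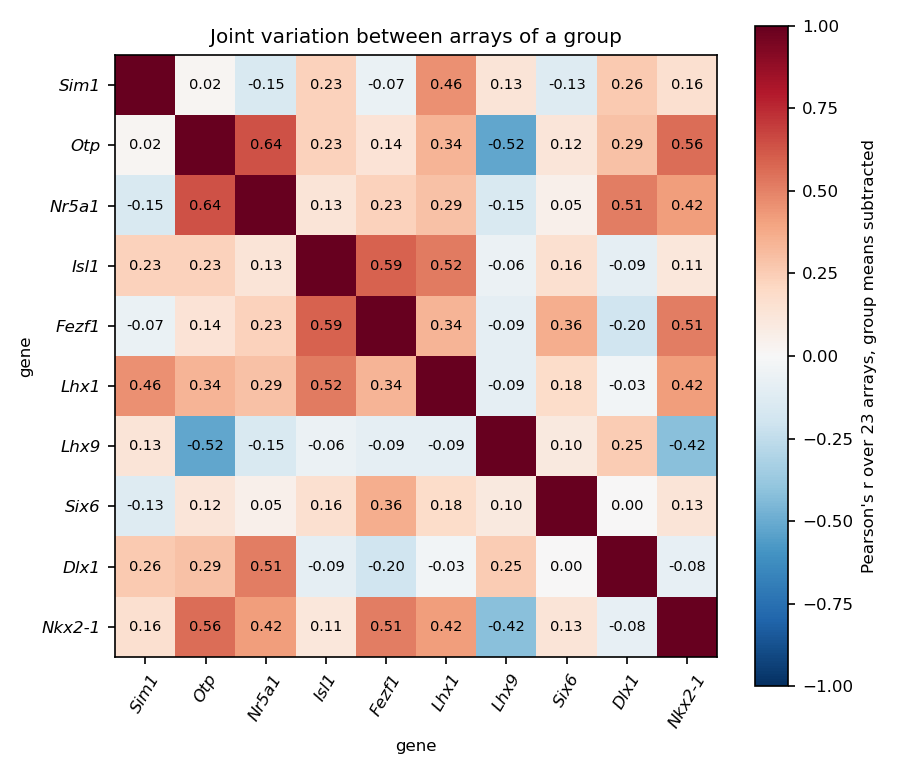
Pearson's r between the factors (both axes) over 23 arrays after subtracting each group's mean; red is positive and blue negative. The darkest squares off the diagonal are Otp with Nr5a1 (0.64) and Isl1 with Fezf1 (0.59), and Lhx9 holds the strongest negative value, -0.52 with Otp.

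Markers of neighbouring tissue were set against the factors in the same way. Over 10 factors and the thalamus, telencephalon and choroid plexus lists, 30 relations in all, none passed after adjustment. Lhx9 had the highest r, 0.50 with the thalamus mean (permutation p = 0.0242, adjusted p = 0.386; rho = 0.46, permutation p = 0.0488; 0.47 without the 2 farthest arrays) and 0.50 with the telencephalon mean (permutation p = 0.0257, adjusted p = 0.386; rho = 0.49, permutation p = 0.0377; 0.64 without them). All 12 of 12 thalamus markers correlated positively with Lhx9, led by the transcription factor genes Gbx2 (0.70) and Tcf7l2 (0.68). The others ranged from 0.25 to 0.46. What share of all genes correlates positively with Lhx9 was not counted. Next after Lhx9 came Six6, at 0.45 with the thalamus mean (adjusted permutation p = 0.493). Sim1, at 0.43, passed in 1 setting, without array 1 of vehicle at 4 days (r = 0.74, adjusted permutation p = 0.0174). The largest gap in the mean of the pituitary markers, from 8.26 to 8.72, set 3 arrays apart, and arrays below it also carried pituitary signal. Pituitary markers were compared within the other 20 arrays, where r lay between -0.26 and 0.26 and none passed. Isl1, Nr5a1 and Six6, which the pituitary also makes, had -0.16, 0.14 and -0.11 there.

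A family of 90 relations, added after seeing the data, set the factors against the other lists (tanycyte, blood, glia and the genes of 6 nuclei or regions), and none passed. The strongest was Lhx9 with the tanycyte mean, r = -0.71 (permutation p = 0.00289, adjusted p = 0.13; rho = -0.58, permutation p = 0.0139; -0.57 without the 2 farthest arrays). Tanycytes are the cells that line the floor of the third ventricle beside the median eminence. Of 9 measured tanycyte markers 7 were negative, led by Gpr50 (-0.77), Scn7a (-0.75) and Col23a1 (-0.61), while Rax, a defining tanycyte factor, was at 0.31 and Vcan at 0.05. Without array 2 of celastrol at 6 h, where Lhx9 was 8.42 and the tanycyte mean 8.71, r was -0.80 and passed (adjusted permutation p = 0.0342). Nkx2-1 with the lateral hypothalamic mean came next (r = -0.61, permutation p = 0.00179, adjusted p = 0.13; rho = -0.56, permutation p = 0.00914; -0.58 without the 2 farthest arrays). In that list 6 of 7 genes were negative, from Nts at -0.53 to Hcrt at -0.17. What share of all genes has a negative r with Lhx9 or with Nkx2-1 was not counted. Against the SD of all genes on an array, the 10 factors had r between -0.41 and 0.15, none of which passed.

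**Figure D4:**
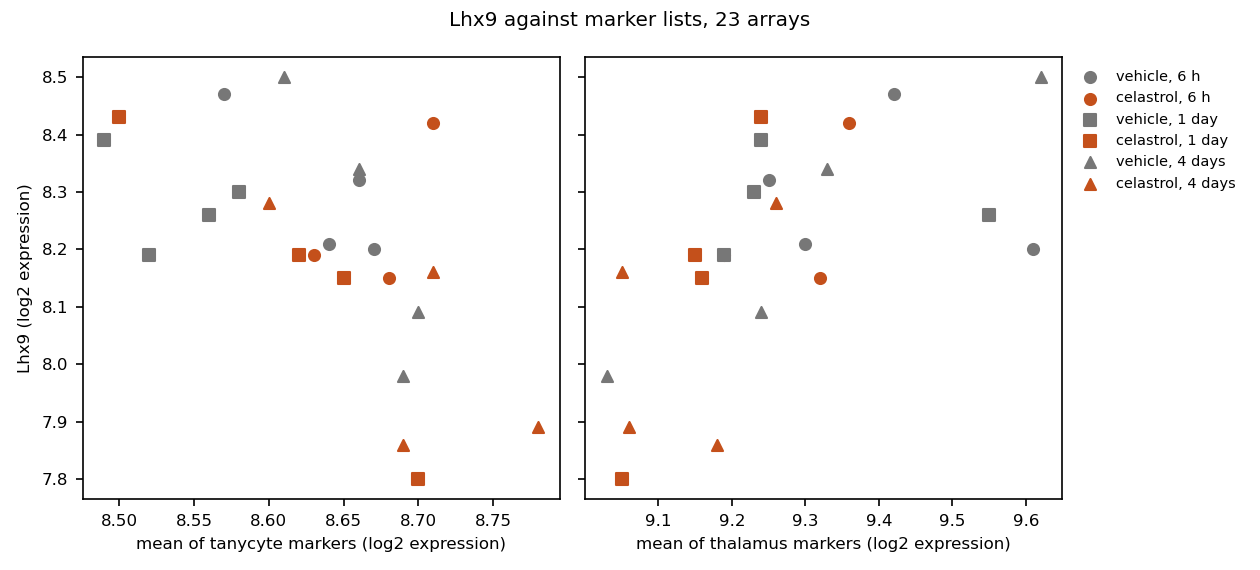
Log2 expression of Lhx9 (y axis) against the mean log2 expression of 9 tanycyte markers (left, x axis) and of 12 thalamus markers (right, x axis), 1 point per array, by treatment (colour) and time (shape), with group means left in. Arrays with low Lhx9, such as array 1 of celastrol at 1 day at 7.80, lie at 8.70 on the tanycyte axis and at 9.05 on the thalamus axis.

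The genes whose pattern between arrays was most like each factor were found among all genes by the same correlation. Among 12468 genes in the upper levels, the 3 closest to Nr5a1 were Numa1, Arhgap33 and Mms19 (r = 0.87, 0.87 and 0.86 over 23 arrays), and to Isl1 Slc39a8, 1600014C10Rik and Slc1a1 (0.84, 0.78 and 0.76). Adam23, Stau1 and Ankrd50 were closest to Sim1 (0.80, 0.80 and 0.79), and Csnk1a1, Pbld2 and Hap1 to Otp (0.81, 0.80 and 0.79). For Fezf1 they were Tmem26, Evx2 and Paqr6 (0.81, 0.74 and 0.73), and for Lhx1 Exoc8, Btbd2 and Luc7l (0.82, 0.80 and 0.80). Megf9, Syndig1 and Marchf3 were closest to Lhx9 (0.74, 0.74 and 0.73), Polr3d, 1700001O22Rik and Ccdc120 to Six6 (0.77, 0.74 and 0.73), Gas7, St6galnac4 and Lzts1 to Dlx1 (0.81, 0.80 and 0.79), and Tle2, Cul9 and Icam1 to Nkx2-1 (0.75, 0.75 and 0.74). These are the highest of many values and are given as a description.

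Other transcription factors of hypothalamic nuclei were taken as a wider list. Of 38 listed, 33 were measured, and 0 passed with celastrol at any time or for the mean (limma, adjusted over all genes). At an unadjusted p below 0.05 there were 2 at 6 h (14.8% of all genes), 7 at 1 day (12.5%) and 11 at 4 days (7.29%), of which 2, 6 and 5 were higher (8.56%, 8.31% and 2.73% of all genes). As shares of the 33, the counts in either direction were 6.06%, 21.2% and 33.3%. The largest differences at 1 day were those of Rax, the tanycyte and retinal homeobox gene (0.27 ± 0.0826 SE, adjusted p = 0.201), and Hmx3, a homeobox gene of hypothalamic progenitors (0.25 ± 0.073, adjusted p = 0.196). At 4 days they were Foxa2 (-0.26 ± 0.104, adjusted p = 0.582), Nr0b1, which encodes DAX1, a partner of steroidogenic factor 1 (0.24 ± 0.114, adjusted p = 0.677), Bsx, a homeobox gene of arcuate Agrp neurons (0.19 ± 0.0577, adjusted p = 0.367), and Lmx1b (-0.19 ± 0.0548, adjusted p = 0.354). Between times averaged over both treatments, where 12.4% of all genes passed, 1 of 33 did, Tbx3, a T-box gene of arcuate neurons, whose means were 8.86 ± 0.0796 and 8.97 ± 0.101 at 6 h, 8.86 ± 0.0276 and 8.86 ± 0.0867 at 1 day, and 8.97 ± 0.107 and 9.10 ± 0.114 at 4 days (vehicle, then celastrol; SD; F = 7.85, adjusted p = 0.0323).

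Gene lists of the nuclei were read against the 12.4% of all genes that passed between times averaged over both treatments. By that test 2 of 8 ventromedial genes passed, Adcyap1, which encodes the peptide PACAP (F = 10.9, adjusted p = 0.0145), and Gpr149 (F = 6.59, adjusted p = 0.0479). Of 9 arcuate genes 1 passed, Ghrh (F = 6.73, adjusted p = 0.046), and of 6 tuberomammillary and mammillary genes 1 passed, Maob (F = 15.8, adjusted p = 0.00516), which encodes monoamine oxidase B. Of the suprachiasmatic and the lateral hypothalamic list 0 of 7 passed each. At an unadjusted p below 0.05 in this test, which 31.4% of all genes had, these lists held 2 and 1 of 7. The counts were 5 of 8 for the ventromedial, 3 of 9 for the arcuate and 1 of 6 for the tuberomammillary and mammillary list. Nr5a1 and Fezf1, with the ventromedial genes, and Isl1, with Ghrh, did not pass this test after adjustment. Their adjusted p were 0.339, 0.281 and 0.143. In vehicle alone, where 8.83% of all genes passed, Adcyap1, Dlk1 and Maob did (adjusted p = 0.00873, 0.0491 and 0.0077), and in celastrol alone, where 0.246% passed, none of these genes did.

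For markers of other tissue and cell types, the share that passed is to be read against the same 12.4% of all genes. Averaged over both treatments, 1 of 12 thalamus markers passed (Calb2, adjusted p = 0.0163), 1 of 10 of the telencephalon (Rgs9, 0.00319), 2 of 10 of the choroid plexus (Kcnj13, 0.012, and Sostdc1, 0.0362), 3 of 9 of tanycytes (Crym, 0.00515, Adm, 0.0165, and Nes, 0.0379), 1 of 6 of blood (Cd8a, 0.0463), 0 of 11 of the pituitary and 0 of 9 of glia. In vehicle alone (8.83% of all genes) they were Rgs9 (adjusted p = 0.015), Kcnj13 (0.00948), Crym (0.0392), Adm (0.0171), the pituitary marker Ghrhr (0.0316) and the blood markers Cd3e (0.0308), Cd8a (0.00773) and Ccr2 (0.0398). The telencephalon mean ranged from 8.51 to 8.60 with vehicle and 8.53 to 8.66 with celastrol at 6 h, and from 8.59 to 8.70 and 8.53 to 8.64 at 4 days. Their part in the rise of Sim1 was not tested.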

How the data were processed

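Log2 expression values per probe set were deposited by the authors, made with RMA per the submitters' processing notes. Which program ran it, whether all arrays were normalised in a single run and whether probe sets were removed is not given in the sources used. The values were taken as deposited. Of 23492 probe sets, the array's annotation table gave 20228 a single gene, 1399 several and 1865 none; symbols were updated by gene identifier through RefSeq's table (GRCm38.p6), and for genes with several probe sets that of highest mean was taken, leaving 18704 genes with no filter on level.

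Group means (6) were estimated from all 23 arrays in a single linear model with limma 3.58.1 in R 4.3.3 (17 residual and 5.424 prior degrees of freedom, no trend), with Benjamini-Hochberg adjustment over all genes at 0.05. Groups came from the sample titles. Correlations (scipy 1.17.1) used values with group means subtracted, 100000 permutations within groups and adjustment per family. The procedures were tested on simulated data.

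The 10 genes and the gene lists were chosen with earlier results of these data known. Lists share genes (Avp, Sst, Cartpt, Nptx2, Rora, Rax and the mammillary factors stand in 2 each), and some thalamus and telencephalon markers are also expressed in the hypothalamus. Genes named are the 10 factors, list genes past 0.05, those with the largest differences of the wider list, and the 3 genes most like each factor; peptide genes named for the tissue check and list members given as examples were chosen after their values were seen. The time comparison averaged over treatments, the lists beyond neighbouring tissue, the array SD and the omission of 4 vehicle arrays with Prl above 9 were also chosen after seeing the data. Alternatives were a robust variance trend, omission of the lowest tercile of genes, quantile normalisation, median centring, array weights, a replicate block, the probe set of largest spread, only the groups compared, and each array left out in turn.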

Additional observations from a re-analysis of the deposited data

Results flagged for a closer look

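In groups of 4 arrays, 50 in all over the 10 factors, 3 held an array that stood far from the others of its group, where chance gives about 1 in 20 groups. Fezf1 was 10.60 on array 2 of vehicle at 1 day, with the nearest other array at 10.66. On array 3 of celastrol at 1 day Fezf1 was 10.51 (nearest 10.70), and on that same array Lhx1 was 8.66 (nearest 8.78).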

How the results depend on the processing

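Of 40 celastrol differences of the 10 factors (3 times and the mean), 22 kept their sign in every alternative and 18 did not; the largest of those 18 was 0.0471 in size. None passed in any alternative, the lowest adjusted p being 0.13. The cause of the changes below was not tested.

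Signs turned as follows. At 6 h, Sim1 became 0.0399 with quantile normalisation, 0.0117 with centring, 0.0132 with the replicate block and 0.0286 without the Prl arrays; array weights gave -0.0207 for Nr5a1, -0.000165 for Isl1, -0.0587 for Dlx1 and -0.00732 for Nkx2-1; Isl1 and Six6 became -0.0334 and -0.000144 without the Prl arrays. At 1 day Sim1 became -0.00306 with weights and -0.0125 without the Prl arrays. At 4 days Otp became 0.00215 (centring), 0.00503 (weights) and 0.0115 (Prl arrays out), Six6 0.00505 (weights) and 0.0158 (Prl arrays out), and Sim1 -0.0209 (Prl arrays out). For the mean, Sim1 became -0.00728 (weights) and -0.0016 (Prl arrays out), and Lhx1 -0.00395 (weights).

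Counts of all genes past the threshold moved too. At 6 h, 0 became 16 without the Prl arrays. At 1 day, 3 became 0 with a variance trend, 1 with quantile normalisation, 406 with weights, 1 with the replicate block and 0 without the Prl arrays. The block gave 1 at 4 days, 1 for the mean and 6, not 11, for the celastrol effect between times, which became 0 with a trend, 5 without the lowest tercile and 0 with quantile normalisation. Between times, vehicle gave 710 (quantile) and 2491 (weights) against 1651, and celastrol 29 (quantile), 96 (weights) and 0 (only its groups) against 46. Of the factors, the average over treatments gave 2 without the lowest tercile, 0 with quantile normalisation, 2 with weights and 0 with the block (Sim1, F = 6.41, adjusted p = 0.0575). Replicate numbers did not clearly pair samples: over 11 pairs of the same number r was -0.0826 to 0.188. It was above 0.1 in 2, both at 6 h (0.124 and 0.188). Among the factors, the block changed no other call. Of factor pairs 2 passed with group means left in.

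With each array left out in turn, the counts ranged from 0 to 2 at 6 h, 0 to 7 at 1 day, 0 to 39 at 4 days, 0 to 9 for the mean, 0 to 118 for the effect between times, 664 to 1933 in vehicle, 0 to 200 in celastrol and 1479 to 2694 over both. Factors past the threshold over both were 0 to 2 (F of Sim1 4.73 to 10.6, of Lhx1 4.0 to 7.33), and 0 to 1 relation passed in each correlation family. Differences that changed sign ranged at 6 h from -0.0301 to 0.0396 (Sim1), -0.0359 to 0.0951 (Nr5a1), -0.0172 to 0.0544 (Isl1), -0.13 to 0.00933 (Lhx9), -0.0358 to 0.0573 (Six6), -0.0808 to 0.0744 (Dlx1) and -0.0169 to 0.0425 (Nkx2-1). At 1 day they ranged from -0.0239 to 0.0182 (Sim1), -0.00491 to 0.0679 (Fezf1), -0.0557 to 0.00112 (Lhx1) and -0.0859 to 0.00276 (Six6), and at 4 days from -0.0209 to 0.0438 (Sim1), -0.0348 to 0.0362 (Otp), -0.0184 to 0.0501 (Lhx1) and -0.1 to 0.0392 (Six6). For the mean they were -0.00818 to 0.0182 (Sim1), -0.00531 to 0.0244 (Lhx1) and -0.0436 to 0.00286 (Six6). Probes have no stated background level here, so which low values lie near background was not analysed.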
